A study of Mus musculus with 9 samples.

Results

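The 9 genes Fezf2, Bcl11b, Tbr1, Foxp2, Cux1, Cux2, Neurod2, Neurod6 and Lmo4, which are widely used to mark cortical layers or projection neurons, were followed in cultures of mouse embryonic cortical neurons. They were taken by gene symbol from the 40773 symbols of the count table, and all 9 were among the 15183 genes with enough counts to test. RNA was sequenced from 9 cultures in 3 groups of 3: cells given ion-charged nanostructures carrying K+ (K+ ICN), cells given such nanostructures carrying Na+ (Na+ ICN), and cells given a peptide amphiphile without charge (PA), to which both were compared. In all groups the labels give a stock of 5 mM used at 200 µM. A volume of 80 µl was placed on cells that had settled overnight, 50% of the medium was changed at 48 h, and the series design gives the comparison at 72 h. The cells came from mouse brain, strain and sex are not stated, and no untreated culture is among the 9 libraries, so every value is relative to cells that also received an amphiphile. The design calls the 3 cultures of a group biological replicates and names no animals, so the p-values cover only the variation among these 9 cultures.

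The mammalian neocortex is built of layers of excitatory projection neurons, and each layer's neurons are specified by transcription factors that they keep expressing after their last division. Fezf2, Bcl11b (CTIP2), Tbr1 and Foxp2 mark the deep layers, whose neurons project out of the cortex, and Cux1 and Cux2 mark the upper layers, whose neurons connect cortical areas. Several of these factors repress one another, Tbr1 and Fezf2 among them. Neurod2 and Neurod6 are basic helix-loop-helix factors of excitatory neurons in all layers rather than of one layer. Lmo4 has LIM domains but no DNA-binding domain of its own and acts in complexes with Ldb1. It is therefore a cofactor, and the set mixes markers of layers with markers of projection neurons. Bcl11b and Foxp2 are also made by striatal neurons.

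K+ ICN cultures had less Lmo4 and less Cux2 RNA than PA cultures, and less Lmo4, Neurod2, Cux2 and Neurod6 RNA than Na+ ICN cultures. Neurod2 was higher in Na+ ICN than in PA cultures. Of these K+ ICN differences, the pair for Lmo4 also passed when libraries were scaled to their counts of pan-neuronal genes, a scale on which Neurod6 changed sign. TMM scaling, which sets libraries to a common trimmed mean, was used throughout unless another is named, while DESeq2 kept its own size factors. None of the 4 deep-layer factors passed the main edgeR test in any of the 3 comparisons, and none passed by DESeq2 or limma voom. By edgeR, 2, 2 and 1 of them had an unadjusted p under 0.05 in K+ ICN against PA, Na+ ICN against PA and K+ ICN against Na+ ICN. Some of 19 alternative fits did call them, Bcl11b in 4 and Foxp2 in 1 for K+ ICN against PA. Foxp2 passed in 1 for Na+ ICN against PA, and Tbr1 in 2 for K+ ICN against Na+ ICN. On the pan-neuronal scale Fezf2 was called higher in K+ ICN than in both other groups, and Bcl11b higher in K+ ICN than in Na+ ICN cultures. That scale called 37% of all genes higher and 1.19% lower in K+ ICN than in PA cultures, and 29.7% higher and 0.724% lower in K+ ICN than in Na+ ICN cultures, so nothing is read from these higher calls. The main test was edgeR's quasi-likelihood test over all 15183 genes, with a threshold of 0.05 on the Benjamini-Hochberg adjusted p. The 7 called folds lay between 0.789 and 1.09. In bulk RNA, fewer cells of a type and less RNA per cell cannot be told apart.

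Read against the whole table, the counts of called factors differed between the comparisons. For K+ ICN against PA, 2 of 9 factors passed, both lower (22.2%), where 15.8% of all genes tested passed, 8.15% higher and 7.68% lower. For Na+ ICN against PA, 1 of 9 passed (11.1%), where 10.9% of all genes passed, 5.63% higher and 5.22% lower. For K+ ICN against Na+ ICN, 4 of 9 passed, all lower (44.4%), where 6.58% of all genes passed, 3.33% higher and 3.25% lower. In the comparisons with PA the count was within 1 gene of what the share over all genes would give, and for K+ ICN against Na+ ICN it was above that share. That share covers genes of all levels, while the factors other than Foxp2 lay at percentiles 70.1 to 97.4 of mean CPM. The factors were also chosen with earlier results of these data known, so the share is not a like-for-like background. The members' median log2 fold change was -0.07 for K+ ICN against PA, 0.03 for Na+ ICN against PA and -0.10 for K+ ICN against Na+ ICN, where the medians over all genes were 0.0031, 0.0036 and -0.00044. The 2 comparisons with PA share the same PA libraries, and the third shares libraries with each of them.

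All 3 K+ ICN libraries lay below all 3 PA libraries for 4 of the 9 factors, where the groups did not overlap for 32% of all genes tested. The Na+ ICN libraries lay above all PA libraries for 2 factors, where 26.7% of all genes did not overlap. The K+ ICN libraries lay below all Na+ ICN libraries for 5 factors, where 22% of all genes did not overlap. These shares count both directions, and no factor lay apart in the direction not named.

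**Figure D1:**
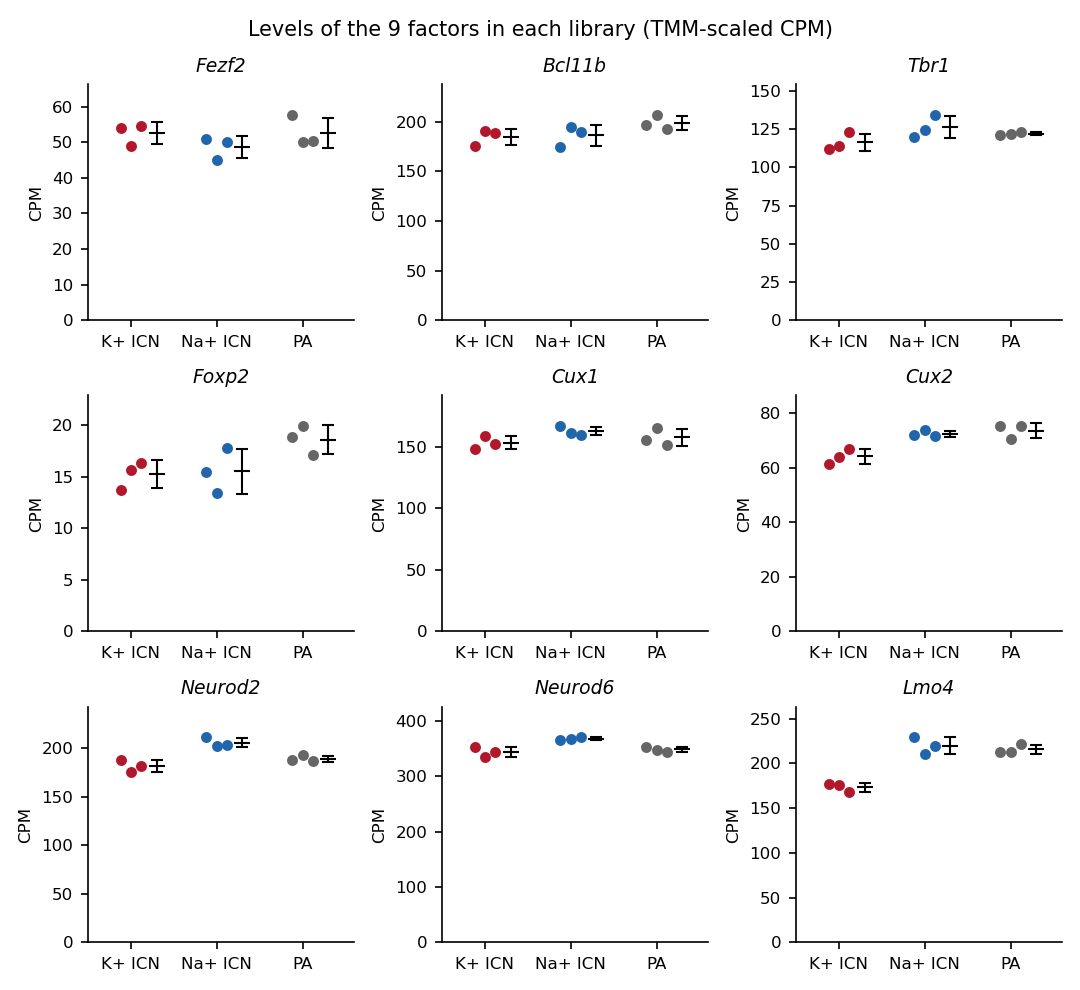
Level of each of the 9 factors in each library, in CPM relative to TMM-scaled library totals (vertical axes, each starting at 0), for K+ ICN, Na+ ICN and PA cultures. Points are libraries, 3 a group, and the bars beside them give the mean and SD. The K+ ICN points for Lmo4, at 168 to 177 CPM, lie below all points of the other groups, while the Fezf2 points overlap in all groups.

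To show what the factors that were lower in K+ ICN than in Na+ ICN cultures have in common or not upstream of their genes, the RefSeq promoter windows (assembly GRCm38.p6) of these 4 genes are printed 5′ to 3′ on the gene's strand. Each window runs over 300 bases, 250 before to 50 after the annotated start. Capitals mark the E-box CANNTG, the motif bound by basic helix-loop-helix factors such as Neurod2 and Neurod6, and the half-site TGACG of the cAMP response element, both searched on both strands. RefSeq windows matched 8 of the 9 symbols. Where a gene had several, the window nearest to the gene's annotated GENCODE start is shown.
Neurod2: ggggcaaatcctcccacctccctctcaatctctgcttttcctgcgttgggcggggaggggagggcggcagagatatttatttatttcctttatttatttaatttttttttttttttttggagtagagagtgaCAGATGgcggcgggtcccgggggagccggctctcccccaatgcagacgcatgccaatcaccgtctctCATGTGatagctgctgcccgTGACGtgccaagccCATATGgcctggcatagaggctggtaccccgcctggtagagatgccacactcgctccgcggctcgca
Neurod6: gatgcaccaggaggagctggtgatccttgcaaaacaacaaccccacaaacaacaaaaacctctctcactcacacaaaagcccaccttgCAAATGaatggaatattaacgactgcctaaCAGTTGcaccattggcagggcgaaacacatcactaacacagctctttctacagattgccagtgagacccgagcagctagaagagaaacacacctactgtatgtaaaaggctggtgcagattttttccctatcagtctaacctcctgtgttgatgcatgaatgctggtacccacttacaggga
Cux2: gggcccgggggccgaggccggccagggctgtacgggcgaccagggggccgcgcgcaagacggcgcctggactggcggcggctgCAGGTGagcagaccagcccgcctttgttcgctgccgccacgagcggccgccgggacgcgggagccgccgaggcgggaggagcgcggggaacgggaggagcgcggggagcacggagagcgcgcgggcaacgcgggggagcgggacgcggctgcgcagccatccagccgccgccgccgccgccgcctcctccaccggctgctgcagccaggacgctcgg
Lmo4: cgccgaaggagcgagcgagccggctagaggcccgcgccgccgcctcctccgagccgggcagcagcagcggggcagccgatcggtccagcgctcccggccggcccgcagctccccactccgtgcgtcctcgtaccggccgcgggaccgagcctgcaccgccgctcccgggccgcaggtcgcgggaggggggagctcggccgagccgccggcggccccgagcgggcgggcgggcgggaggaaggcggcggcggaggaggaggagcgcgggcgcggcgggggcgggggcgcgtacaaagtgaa
The Neurod2 window (chr11:98329596-98329895, minus strand) held 3 E-boxes. The letters CAGATG began at -118 from the start, CATGTG began at -51 and CATATG at -17. A TGACG stood at -31. The Neurod6 window (chr6:55681214-55681513, minus strand) held 2 E-boxes: CAAATG began at -162, and the one nearer to the start, CAGTTG, at -132. The Cux2 window (chr5:122049802-122050101, minus strand) held 1 E-box, CAGGTG at -167, and the Lmo4 window (chr3:144205206-144205505, minus strand) held neither motif. Cux2 had 2 and Lmo4 3 windows, of which 1 each was searched. Among the factors not called in this comparison, the Tbr1 window held 1 E-box, CAGGTG at -46. The Fezf2, Bcl11b and Cux1 windows held neither motif. The RefSeq starts of the Fezf2, Cux1 and Tbr1 windows lay 2324, 1509 and 1523 bases from the GENCODE start of the gene. For Neurod2, Neurod6, Cux2, Lmo4 and Bcl11b this distance was 3, 0, 251, 35 and 188 bases, so the windows are not equally placed. E-boxes are common: 72.3% of 32851 RefSeq windows of the same length held at least 1. The letters CAGATG, the form of the E-box preferred by NeuroD factors and a subset of CANNTG, stood in 17.2% of windows, and TGACG in 20.8%. Base composition set the windows apart as well, with 81.3% G or C in Lmo4 and 80.3% in Cux2, against 55.3% in Neurod2 and 46.3% in Neurod6. These matches describe letters, not bound sites.

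Of the deep-layer factors, Fezf2, a zinc-finger factor required for layer V neurons that project to the brainstem and spinal cord, lies on chromosome 14 (12342094 to 12348189, minus strand, GRCm38). It had 54.1, 49.0 and 54.7 CPM in K+ ICN libraries, 50.8, 45.0 and 50.2 CPM in Na+ ICN libraries, and 57.6, 50.2 and 50.2 CPM in PA libraries. All 3 groups overlapped. The fold was 0.999 for K+ ICN against PA, with a 95% interval of 0.911 to 1.10 (edgeR, adjusted p = 0.992), 0.925 (0.843 to 1.02) for Na+ ICN against PA, and 1.08 (0.984 to 1.18) for K+ ICN against Na+ ICN. Together the intervals hold folds between 0.843 and 1.18.

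Bcl11b, the zinc-finger factor that acts below Fezf2 in layer V neurons, lies on chromosome 12 (107910403 to 108003602, minus strand). It had 176, 191 and 189 CPM in K+ ICN libraries, 174, 195 and 190 CPM in Na+ ICN libraries, and 197, 207 and 193 CPM in PA libraries. Every K+ ICN library was below every PA library by a narrow margin, and the Na+ ICN libraries reached into the PA range. The fold was 0.930 (0.880 to 0.983) for K+ ICN against PA, with an adjusted p of 0.064 by edgeR, and 0.937 (0.887 to 0.991) for Na+ ICN against PA, with an adjusted p of 0.13. Between K+ ICN and Na+ ICN cultures the fold was 0.992 (0.939 to 1.05). Bcl11b passed for K+ ICN against PA in 4 of 19 alternative fits. One of these was the fit to the 6 libraries compared, in which K+ ICN against PA called 4 of the 9 factors, Bcl11b, Foxp2, Cux2 and Lmo4.

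Tbr1, the T-box factor of layer VI corticothalamic neurons, lies on chromosome 2 (61802930 to 61814114, plus strand). It had 112, 114 and 123 CPM in K+ ICN libraries, 120, 124 and 134 CPM in Na+ ICN libraries, and 121, 122 and 123 CPM in PA libraries. The PA values were almost equal. The Na+ ICN values reached from below to above them, while the highest K+ ICN value lay inside the PA range and the others below it. The fold was 0.953 (0.897 to 1.01) for K+ ICN against PA, 1.03 (0.973 to 1.10) for Na+ ICN against PA, and 0.921 (0.867 to 0.979) for K+ ICN against Na+ ICN, the last with an adjusted p of 0.0993 by edgeR. Tbr1 passed for K+ ICN against Na+ ICN in 2 of 19 alternative fits, those without Na+ ICN replicate 1 or K+ ICN replicate 3.

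Foxp2, a forkhead factor of layer VI and the striatum, lies on chromosome 6 (14901349 to 15441977, plus strand) and was the lowest of the 9, with as few as 239 counts in a library. It had 13.7, 15.7 and 16.4 CPM in K+ ICN libraries, 15.4, 13.4 and 17.8 CPM in Na+ ICN libraries, and 18.9, 19.9 and 17.1 CPM in PA libraries. All K+ ICN libraries were below all PA libraries, while 1 Na+ ICN library lay inside the PA range. The fold was 0.820 (0.706 to 0.952) for K+ ICN against PA and 0.837 (0.720 to 0.973) for Na+ ICN against PA, with adjusted p of 0.0598 and 0.126 by edgeR. Neither passed the main test, although the fold of Foxp2 in K+ ICN against PA cultures was close to that of Lmo4. Each passed in 1 of 19 alternative fits. For K+ ICN against PA it was the fit to the 6 libraries compared, and for Na+ ICN against PA the fit without Na+ ICN replicate 3. The SE of the log2 fold change was 0.11 for Foxp2 and 0.036 for Lmo4. Between K+ ICN and Na+ ICN cultures the fold was 0.979 (0.841 to 1.14).

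The upper-layer factors Cux1 and Cux2 are homeodomain proteins that shape dendrites and spines in layers II to IV. Cux1 lies on chromosome 5 (136248135 to 136567490, minus strand). It had 149, 159 and 152 CPM in K+ ICN libraries, 167, 162 and 160 CPM in Na+ ICN libraries, and 156, 165 and 152 CPM in PA libraries. The K+ ICN libraries were just below the Na+ ICN libraries, and both overlapped the PA libraries. The fold was 0.973 (0.922 to 1.03) for K+ ICN against PA, 1.03 (0.978 to 1.09) for Na+ ICN against PA, and 0.942 (0.892 to 0.995) for K+ ICN against Na+ ICN (edgeR, adjusted p = 0.219). The Cux1 locus also encodes CASP, a Golgi protein without homeodomain, and counts per gene do not separate the 2 products. Of 4 annotated genes overlapping Cux1, 1 of them on the opposite strand, only Gm16599 and Mir721 are among the counted symbols. They had at most 2 and 0 counts in any library.

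Cux2 lies on the same chromosome (121856366 to 122050102, minus strand). It had 61.5, 63.9 and 66.9 CPM in K+ ICN libraries, 72.0, 73.7 and 71.6 CPM in Na+ ICN libraries, and 75.1, 70.4 and 75.1 CPM in PA libraries. The K+ ICN libraries lay below all 6 others, and the Na+ ICN values fell inside the PA range. Cux2 averaged 64.1 ± 2.74 CPM in K+ ICN and 73.5 ± 2.69 CPM in PA cultures (SD, n = 3 each), a log2 fold change of -0.20 (SE 0.053; fold 0.871, 0.810 to 0.938) with an adjusted p of 0.00563 by edgeR. Against the 72.4 ± 1.13 CPM of Na+ ICN cultures it was lower by a similar amount (fold 0.885, 0.822 to 0.953; edgeR, adjusted p = 0.0318). For Na+ ICN against PA the fold was 0.985 (0.915 to 1.06). The difference from Na+ ICN cultures no longer passed without any 1 of the Na+ ICN libraries (adjusted p of 0.0644, 0.115 and 0.0516 without replicates 1, 2 and 3) or without K+ ICN replicate 1 (0.166) or 2 (0.0892). Cux2 did not pass against either group when libraries were scaled to their counts of pan-neuronal genes (adjusted p of 0.678 against PA and 0.751 against Na+ ICN).

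Neurod2, on chromosome 11 (98325415 to 98329648, minus strand), promotes the maturation and thalamic innervation of cortical neurons. It had 188, 175 and 182 CPM in K+ ICN libraries, 211, 202 and 203 CPM in Na+ ICN libraries, and 187, 192 and 186 CPM in PA libraries. The Na+ ICN libraries stood above all 6 others, and the K+ ICN and PA libraries overlapped. Neurod2 averaged 205 ± 4.91 CPM in Na+ ICN and 189 ± 3.20 CPM in PA cultures (SD, n = 3 each), a log2 fold change of 0.12 (SE 0.036; fold 1.09, 1.04 to 1.14) with an adjusted p of 0.0198 by edgeR. It averaged 182 ± 6.40 CPM in K+ ICN cultures, a fold of 0.885 (0.842 to 0.930) against Na+ ICN cultures (edgeR, adjusted p = 0.000576) and 0.963 (0.916 to 1.01) against PA cultures (adjusted p = 0.343). The higher level in Na+ ICN than in PA cultures lost its call when Na+ ICN replicate 1 (adjusted p = 0.0961), PA replicate 1 (0.0691) or PA replicate 3 (0.0934) was left out, and the other difference did not pass when scaled to pan-neuronal counts (0.618).

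Neurod6, on chromosome 6 (55677822 to 55681263, minus strand), marks the same neurons and was the most abundant of the 9. It had 353, 335 and 343 CPM in K+ ICN libraries, 365, 367 and 370 CPM in Na+ ICN libraries, and 353, 348 and 343 CPM in PA libraries. The pattern over groups was that of Neurod2 on a smaller scale, with the Na+ ICN libraries above all 6 others. The fold was 0.935 (0.897 to 0.975) for K+ ICN against Na+ ICN, which passed (edgeR, adjusted p = 0.0396), and 1.06 (1.01 to 1.10) for Na+ ICN against PA, which did not (adjusted p = 0.0914). Against PA cultures, K+ ICN cultures had a fold of 0.987 (0.946 to 1.03). The called difference was lost in 9 of 19 alternative fits, among them those without any 1 of the Na+ ICN libraries (adjusted p of 0.0654, 0.0946 and 0.103 without replicates 1, 2 and 3) and without K+ ICN replicates 2 (0.224) or 3 (0.101), and it turned to the opposite sign when scaled to pan-neuronal counts (log2 0.05).

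Lmo4, on chromosome 3 (144188530 to 144205220, minus strand), encodes a LIM-only protein that contributes to calcium-dependent transcription and to the sorting of callosal from subcortical projection neurons. It had 177, 175 and 168 CPM in K+ ICN libraries, 229, 211 and 220 CPM in Na+ ICN libraries, and 213, 213 and 222 CPM in PA libraries. The K+ ICN libraries lay below all 6 others with a gap wider than the range of any group, and the Na+ ICN and PA libraries overlapped. Lmo4 averaged 173 ± 5.05 CPM in K+ ICN and 216 ± 4.98 CPM in PA cultures (SD, n = 3 each). The log2 fold change was -0.32 (SE 0.036; fold 0.804, 0.764 to 0.846), with an adjusted p of 4.67e-09 by edgeR, and it ranked 100 of 15183 genes by p. Against the 220 ± 9.42 CPM of Na+ ICN cultures the fold was 0.789 (0.750 to 0.830), with an adjusted p of 1.35e-09 by edgeR and a rank of 34. For Na+ ICN against PA the fold was 1.02 (0.968 to 1.07). Both calls passed in all 19 alternative fits, with log2 fold changes between -0.33 and -0.15 against PA and between -0.37 and -0.19 against Na+ ICN.

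**Figure D2:**
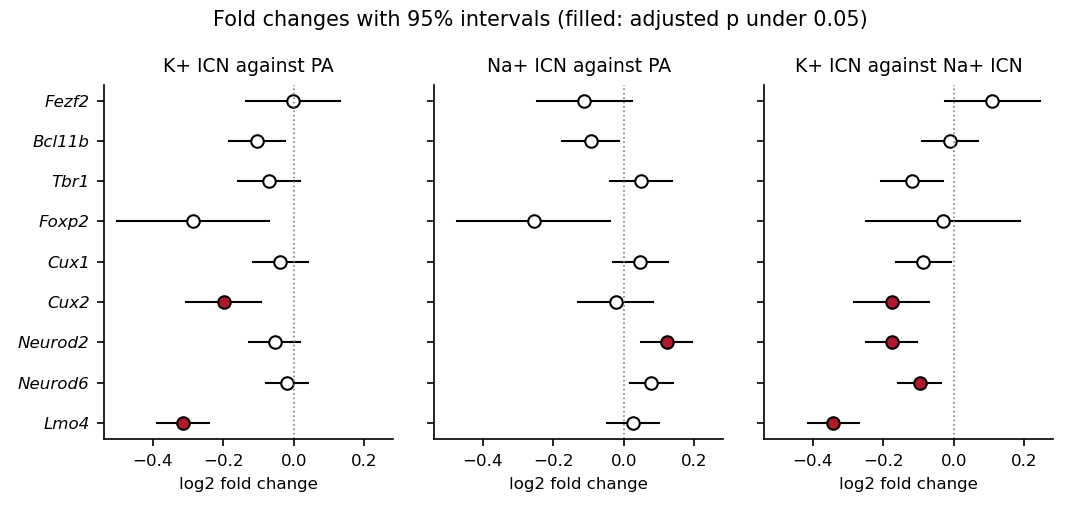
Log2 fold change of the 9 factors (horizontal axes) for K+ ICN against PA, Na+ ICN against PA and K+ ICN against Na+ ICN, with 95% intervals. Filled points have an adjusted p under 0.05 by edgeR over all genes tested. Lmo4 lies at -0.32 and -0.34 in the outer panels, and the deep-layer factors, in the top 4 rows, are open in all panels.

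Scaling mattered for the smaller differences. The summed level of 11 pan-neuronal genes, among them Tubb3, Map2 and Dcx, was 7889 to 8019 CPM (of plain library totals) in K+ ICN libraries, 8642 to 8820 in Na+ ICN libraries and 8837 to 8947 in PA libraries. Of the 11, 5 were lower and none higher in K+ ICN than in PA cultures, 1 lower and none higher in Na+ ICN than in PA cultures, and 5 lower and 1 higher in K+ ICN than in Na+ ICN cultures. In K+ ICN against PA cultures Tubb3, which encodes a neuronal tubulin, was at 0.825-fold (edgeR, adjusted p = 2.64e-09). Tubb3, Dcx and Map2, the most abundant, weigh most in the sum. They averaged 1617, 1744 and 1584 CPM in K+ ICN and 1960, 2004 and 1773 CPM in PA cultures. Rbfox3, Elavl4, Stmn2, Nefl, Nefm and Snap25 were not called between these groups, with folds of 0.956, 0.996, 0.984, 1.01, 0.953 and 1.06. The sum is thus not an even measure of neuronal RNA. Scaling every library to this sum, an alternative added after seeing the data, moved the median log2 fold change of all genes to 0.17 for K+ ICN against PA and to 0.15 for K+ ICN against Na+ ICN. On that scale Lmo4 was still lower in K+ ICN cultures, with a log2 fold change of -0.15 against PA (adjusted p = 0.00107) and -0.19 against Na+ ICN (6.87e-05). Cux2 was at -0.03 in both comparisons, and Fezf2, Cux1, Neurod2 and Neurod6 were called higher in K+ ICN than in PA cultures, at log2 0.16, 0.13, 0.11 and 0.15. All 4 lay below the moved median of all genes, and 37% of all genes were called higher there, so the count of 4 of 9 is near the share over the table. For Na+ ICN against PA the same scale called Neurod2 and Neurod6 higher and no factor lower, where 6.28% of all genes were called higher and 3.65% lower. The part of the lower neuronal marker sum in the factors' differences was not tested.

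Ratios of counts within a library do not depend on scaling. The ratio of Lmo4 to Neurod6 was 0.503, 0.523 and 0.489 in K+ ICN libraries, 0.628, 0.574 and 0.593 in Na+ ICN libraries, and 0.603, 0.612 and 0.645 in PA libraries. The K+ ICN ratios were below all others. The ratio of Neurod2 to Neurod6 was 0.523 to 0.533 in K+ ICN, 0.548 to 0.578 in Na+ ICN and 0.531 to 0.553 in PA libraries, so the K+ ICN libraries stood apart from the Na+ ICN libraries only. The ratio of Cux2 to Cux1 averaged 0.418 ± 0.019 in K+ ICN, 0.445 ± 0.013 in Na+ ICN and 0.468 ± 0.037 in PA libraries (SD, n = 3 each), with overlapping ranges. The summed counts of the 4 deep-layer factors over those of the 2 Cux factors were 1.66 to 1.74 in K+ ICN libraries, 1.51 to 1.69 in Na+ ICN libraries and 1.69 to 1.71 in PA libraries. The K+ ICN and PA ranges overlapped, and the highest Na+ ICN ratio was at the lowest PA ratio.

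Per kilobase of merged exons, the factors spanned a wide range of levels that the treatments hardly reordered. In PA cultures Neurod6 was highest at 162 CPM per kilobase, followed by Lmo4 at 61.1, Neurod2 at 60.1, Bcl11b at 24.5, Tbr1 at 22.3, Fezf2 at 17.3, Cux1 at 7.87, Cux2 at 7.29 and Foxp2 at 1.14. Only Lmo4 and Neurod2 had overlapping ranges among neighbours in that order. In K+ ICN cultures Neurod2, at 57.8, was above Lmo4, at 49.1, without overlap. Neurod2 was also above Lmo4 in Na+ ICN cultures, at 65.4 and 62.3, with overlapping ranges. Bcl11b and Tbr1 overlapped in both ICN groups and swapped order in Na+ ICN cultures, where both averaged 23 CPM per kilobase. Merged exons count every annotated isoform, so genes with many isoforms, such as Foxp2 and Cux1, come out lower on this scale.

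Among the factors, the Pearson r of log2 levels was highest between Neurod2 and Neurod6, at 0.923, and between Cux2 and Lmo4, at 0.835. It was 0.731 between Neurod2 and Lmo4, 0.667 between Tbr1 and Cux2, 0.638 between Bcl11b and Foxp2, and 0.603 or below for every other pair. These values describe 9 libraries that share 3 treatments and their scaling. Among 10774 other genes with at least 5 CPM, those most like Lmo4 were Exoc4 (r 0.979), a subunit of the exocyst, Tmem150c (0.977) and Tubb3 (0.975). Those most like Cux2 were Trim67 (0.958), Elovl2 (0.957), an elongase of very long chain fatty acids, and the adhesion molecule Ncam1 (0.948). Fblim1 led for both Neurod2 (0.977) and Neurod6 (0.961). It was followed by Amotl2 (0.965) and Macrod2 (0.964) for Neurod2, and by Cav1 (0.947), the coat protein of caveolae, and Dmac2 (0.941) for Neurod6.

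Further genes of the same layers were read from lists chosen by function. Of 16 other deep-layer genes, all tested, 4 were lower and 2 higher in K+ ICN than in PA cultures, 2 lower and 1 higher in Na+ ICN than in PA cultures, and 1 lower and 2 higher in K+ ICN than in Na+ ICN cultures. Their median log2 fold changes were 0.02, -0.03 and -0.05. Scaled to pan-neuronal counts, which called 37% of all genes higher and 1.19% lower in K+ ICN than in PA cultures, 9 of the 16 were higher and 1 lower. The counts of higher genes given on that scale for the lists that follow are to be read against the same share. Ldb2, which encodes a partner of LIM-domain proteins and marks layer V, was lower in every comparison. It averaged 48.5 ± 2.14 CPM in K+ ICN, 60.7 ± 2.45 CPM in Na+ ICN and 70.1 ± 2.40 CPM in PA cultures (SD, n = 3 each), a fold of 0.692 for K+ ICN against PA (edgeR, adjusted p = 1.06e-09), 0.866 for Na+ ICN against PA (0.0117) and 0.799 for K+ ICN against Na+ ICN (9.91e-05). It kept its direction and its calls for K+ ICN on the pan-neuronal scale. Sox5, a factor of layers V and VI, was 1.16-fold higher in K+ ICN than in Na+ ICN cultures and 0.877-fold in Na+ ICN against PA cultures. S100a10 was 1.5-fold and Tshz2 1.38-fold higher in K+ ICN than in PA cultures, so members of the list moved in both directions. S100a10 was likewise 1.54-fold in Na+ ICN against PA cultures (edgeR, adjusted p = 0.00175) and 0.971-fold in K+ ICN against Na+ ICN cultures.

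Of 12 other upper-layer genes, all tested, 3 were lower and 2 higher in K+ ICN than in PA cultures, 3 lower and 2 higher in Na+ ICN than in PA cultures, and 2 lower and 1 higher in K+ ICN than in Na+ ICN cultures, with median log2 fold changes of -0.06, -0.05 and -0.01. Scaled to pan-neuronal counts, 6 were higher and 3 lower in K+ ICN than in PA cultures. Mdga1, an adhesion molecule that limits synapse formation, had a fold of 0.752 for K+ ICN against PA (edgeR, adjusted p = 3.58e-10) and 0.806 against Na+ ICN. Bhlhe22, a helix-loop-helix repressor of projection neurons, had a fold of 0.837 against PA and 0.839 against Na+ ICN cultures. Rorb, the layer IV nuclear receptor, was 0.775-fold in K+ ICN and 0.855-fold in Na+ ICN against PA cultures. These calls of Mdga1, Bhlhe22 and Rorb in K+ ICN cultures kept their sign on the pan-neuronal scale. Pou3f2, a POU factor of upper-layer neurons and their progenitors, was 1.17-fold in K+ ICN and 1.18-fold in Na+ ICN against PA cultures.

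**Figure D3:**
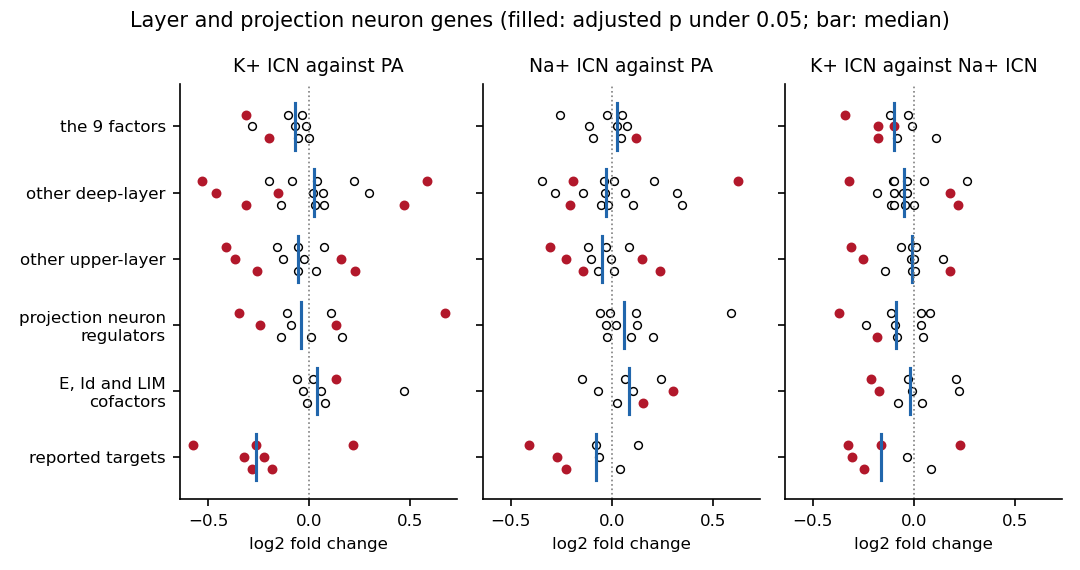
Log2 fold change (horizontal axes) of each tested gene of the 9 factors and of 5 lists of related genes, for K+ ICN against PA, Na+ ICN against PA and K+ ICN against Na+ ICN. Points are genes, filled where the adjusted p by edgeR was under 0.05, and bars are list medians. The reported targets have the lowest median, -0.26, in K+ ICN against PA cultures, and the other lists' medians lie within 0.1 of 0.

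Of 12 other regulators of projection neurons, 10 were tested. Neurog1 was listed at 0 in all libraries and Neurod4 had at most 7 counts. In K+ ICN against PA cultures 2 were lower and 2 higher, in Na+ ICN against PA cultures none passed by edgeR, DESeq2 or limma voom (3 had an unadjusted p under 0.05), and in K+ ICN against Na+ ICN cultures 2 were lower and none higher, with median log2 fold changes of -0.04, 0.06 and -0.09. On the pan-neuronal scale 2 were higher and 1 lower in K+ ICN than in PA cultures. Neurod1, a close relative of Neurod2 and Neurod6, averaged 29.6 ± 1.65 CPM in K+ ICN, 38.3 ± 0.924 CPM in Na+ ICN and 37.7 ± 3.35 CPM in PA cultures (SD, n = 3 each). Its fold was 0.785 against PA (adjusted p = 0.000588) and 0.773 against Na+ ICN (0.000576) by edgeR. Zbtb18, a repressor needed for the maturation of cortical neurons, averaged 715 ± 5.50 CPM in K+ ICN, 812 ± 17.6 CPM in Na+ ICN and 845 ± 10.4 CPM in PA cultures, a fold of 0.845 against PA and 0.880 against Na+ ICN. Neurod1 and Zbtb18 kept these signs on the pan-neuronal scale, where the calls of Neurod1 against PA (adjusted p = 0.0545) and of Zbtb18 against Na+ ICN (0.346) were lost.

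Helix-loop-helix factors act in pairs with E proteins, which Id proteins block, and Lmo4 acts with Ldb1. Of 8 such partners, all tested, 1 was higher in K+ ICN than in PA cultures by edgeR (none by DESeq2 or limma voom), 2 were higher in Na+ ICN than in PA cultures and 2 were lower in K+ ICN than in Na+ ICN cultures, with no call in the other directions and median log2 fold changes of 0.04, 0.09 and -0.02. On the pan-neuronal scale 5 were higher in K+ ICN than in PA cultures and 2 higher in K+ ICN than in Na+ ICN cultures, where 37% and 29.7% of all genes were. With TMM scaling the called genes were Id4 and Id2. Id4 averaged 91.3 ± 1.05 CPM in K+ ICN, 103 ± 3.92 CPM in Na+ ICN and 83.2 ± 2.52 CPM in PA cultures, a fold of 1.10 for K+ ICN against PA (edgeR, adjusted p = 0.0404), 1.23 for Na+ ICN against PA and 0.888 for K+ ICN against Na+ ICN. Id2 was 1.11-fold in Na+ ICN against PA and 0.863-fold in K+ ICN against Na+ ICN cultures, and neither Id4 nor Id2 passed against Na+ ICN on the pan-neuronal scale. The E proteins Tcf3, Tcf4 and Tcf12 and the cofactor Ldb1 were not called by edgeR with TMM scaling. On the pan-neuronal scale all 4 were called higher in K+ ICN than in PA cultures, and Tcf12 and Tcf4 higher in K+ ICN than in Na+ ICN cultures. With plain library totals Tcf4 was called lower in Na+ ICN than in PA cultures (adjusted p = 0.0322), and DESeq2 called 3 of the list in that comparison, against 2 by edgeR.

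Genes reported elsewhere as targets of the factors formed a further list. Of 8, 7 were tested, and Srpx2 had at most 4 counts. In K+ ICN against PA cultures 6 were lower and 1 higher, in Na+ ICN against PA cultures 3 were lower and none higher, and in K+ ICN against Na+ ICN cultures 4 were lower and 1 higher, with median log2 fold changes of -0.26, -0.08 and -0.16. On the pan-neuronal scale 3 were lower and 1 higher in K+ ICN than in PA cultures. Mef2c, a MADS-box factor of cortical neurons reported as a Foxp2 target, averaged 515 ± 1.98 CPM in K+ ICN, 637 ± 6.81 CPM in Na+ ICN and 768 ± 10.6 CPM in PA cultures. Its fold was 0.671 for K+ ICN against PA (edgeR, adjusted p = 1.24e-21), 0.828 for Na+ ICN against PA (1.08e-10) and 0.809 for K+ ICN against Na+ ICN (6.01e-12). The Tbr1 targets Auts2, Grin2b and Reln had folds of 0.800, 0.858 and 0.880 for K+ ICN against PA, and the calls of Grin2b (adjusted p = 0.244) and Reln (0.698) were lost on the pan-neuronal scale. Tbr1 itself was not called. Reln, the secreted guidance protein, is also made by Cajal-Retzius cells and interneurons, and was lowest in Na+ ICN cultures, at 320 ± 10.5 CPM, against 374 ± 11.3 CPM in K+ ICN and 425 ± 5.45 CPM in PA cultures. Cntn2, an axonal adhesion molecule, was lower in K+ ICN cultures than in Na+ ICN (fold 0.797) and PA cultures (0.821). The RNA of Slc17a7, the vesicular glutamate transporter, was 1.16-fold higher in K+ ICN than in PA cultures.

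Markers of other cell types moved between the groups as well, and their part in the factors' differences was not tested. Summed levels are given in CPM of plain library totals. Of 10 tested astrocyte genes, 8 were higher in K+ ICN and 8 in Na+ ICN than in PA cultures, with sums of 937 to 951 in K+ ICN, 957 to 1012 in Na+ ICN and 801 to 834 in PA libraries. Of 9 progenitor genes, 6 were higher in K+ ICN and 5 in Na+ ICN than in PA cultures, with sums of 1186 to 1225, 1110 to 1195 and 993 to 1040 in the K+ ICN, Na+ ICN and PA libraries. Of 8 tested genes of endothelial, mural and fibroblast cells, 5 were higher in K+ ICN and 4 in Na+ ICN than in PA cultures, and their sums were 143 to 169 in K+ ICN, 122 to 132 in Na+ ICN and 77.1 to 88.2 in PA libraries. In K+ ICN against Na+ ICN cultures 1 astrocyte gene was higher and 3 were lower, 1 progenitor gene was higher and 1 lower, and 1 gene of the vascular list was higher. On the pan-neuronal scale, which called 37% of all genes higher in K+ ICN than in PA cultures, all 10 astrocyte genes were. That scale called 29.7% of all genes higher in K+ ICN than in Na+ ICN cultures, with 5 astrocyte genes higher and 2 lower, and 5 progenitor genes and 4 of the vascular list higher and none lower. Cldn5, the defining endothelial gene, had at most 5 counts. The microglial sum stayed between 6.91 and 11.8, with no gene called in any comparison by edgeR, DESeq2 or limma voom and none with an unadjusted p under 0.05, and P2ry12 and Tmem119 had at most 12 and 3 counts. Of 7 tested oligodendrocyte lineage genes, 2 were higher and 1 lower in K+ ICN than in PA cultures and likewise in Na+ ICN than in PA cultures, with sums of 154 to 165 in K+ ICN, 146 to 161 in Na+ ICN and 158 to 176 in PA libraries.

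Neuronal classes that share Bcl11b or Foxp2 were also followed. The sum of 16 interneuron genes was 962 to 986 in K+ ICN, 895 to 907 in Na+ ICN and 992 to 1021 in PA libraries. In K+ ICN against PA cultures 3 were lower and none higher with TMM scaling, but 7 higher and none lower on the pan-neuronal scale, in Na+ ICN against PA cultures 5 were lower and 1 higher, and in K+ ICN against Na+ ICN cultures 2 were higher and none lower. The sum of 12 striatal genes was 410 to 422 in K+ ICN, 405 to 414 in Na+ ICN and 415 to 430 in PA libraries. Of 7 genes of glutamatergic neurons, 2 were lower and 2 higher in K+ ICN than in PA cultures (4 higher and none lower on the pan-neuronal scale) and none passed in Na+ ICN against PA cultures by edgeR, DESeq2 or limma voom (3 had an unadjusted p under 0.05). Their sums of 1511 to 1564 in K+ ICN, 1435 to 1504 in Na+ ICN and 1466 to 1555 in PA libraries overlapped between each ICN group and PA, while all K+ ICN sums were above all Na+ ICN sums. Set against Na+ ICN cultures, K+ ICN cultures had 1 gene of this list higher and 2 lower with TMM scaling. On the pan-neuronal scale 5 were higher and none lower, where 29.7% of all genes were called higher. Of 5 Cajal-Retzius genes, Reln and Ndnf were lower in both ICN groups than in PA cultures. The sums were 392 to 413 in K+ ICN, 330 to 349 in Na+ ICN and 453 to 475 in PA libraries, and Reln, at 425 CPM in PA cultures, made up most of them. Trp73, Lhx1 and Lhx5 averaged at most 1.77 CPM in a group and were not called in any comparison. Their log2 fold changes were 0.335, 0.293 and 0.769 for Na+ ICN against PA, and -0.00733, 0.053 and -0.581 for K+ ICN against PA.

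**Figure D4:**
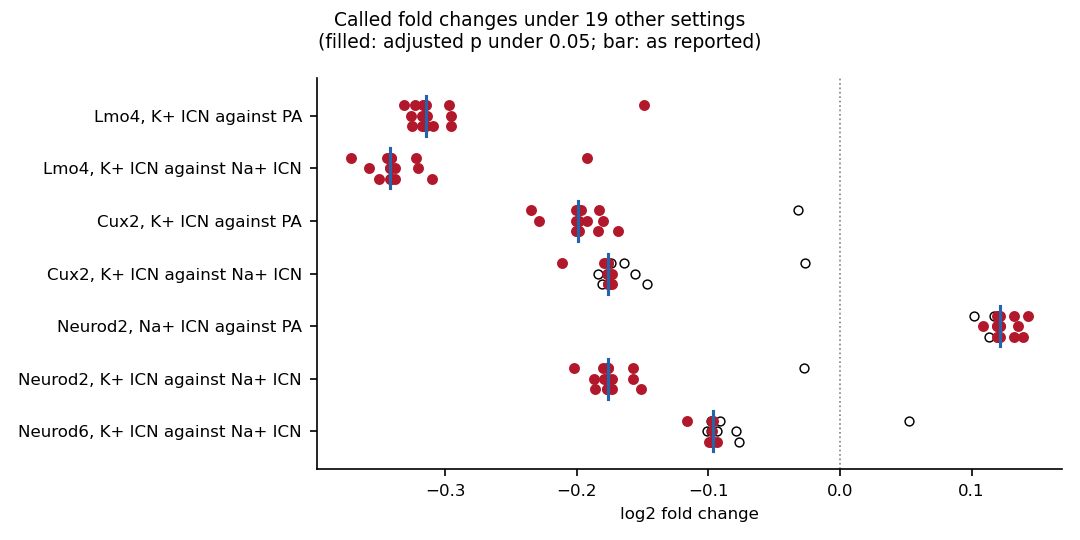
Log2 fold change (horizontal axis) of the 7 called differences under 19 other settings each. Filled points passed an adjusted p of 0.05, open points did not, and bars mark the value as reported. Both Lmo4 differences stayed filled throughout, and the points set apart to the right in rows on K+ ICN cultures come from scaling to pan-neuronal counts.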

How the data were processed

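For 9 libraries the authors deposited a table of raw, whole-number counts with 40773 gene symbols. The libraries were made from polyadenylated RNA with a stranded kit per the labels' protocols. Trim Galore, STAR and RSEM with the mouse build GRCm38 are named per the submitters' processing notes. Versions, the annotation, the strand setting and whether STAR or RSEM gave the counts are not given in any source used here. Library totals were 20573886 to 21914112 in K+ ICN, 17924988 to 20640622 in Na+ ICN and 18532789 to 22906950 in PA libraries, and the factors had 239 to 7852 counts a library. No 2 replicates were alike within counting noise (chi-square per degree of freedom 3.23 to 4.13).

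The test was edgeR 4.0.16 under R 4.3.3: filterByExpr with a count minimum of 10 (15183 genes, holding 99.926% of counts), TMM scaling (factors 0.9905 to 1.008), and a robust quasi-likelihood fit to all 9 libraries with 1 term per group. P-values were adjusted by Benjamini-Hochberg over all genes tested, with a threshold of 0.05. The common biological coefficient of variation was 5.67%, and the factors' own variation within a group had a median of 3.66%. Intervals are 95%. Levels are TMM-scaled CPM, and summed levels of lists use plain library totals.

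The 9 factors and the 15 lists beside them (150 genes) were chosen with earlier results of these data known. Named from each list were up to 4 called genes a comparison with the smallest p and genes named for their level. Some genes of the lists are not reported here. Likeness is Pearson r of log2 CPM. Gene positions and exon lengths are from GENCODE vM21 (GRCm38), and promoters from RefSeq. Alternatives were DESeq2 1.42.0, limma 3.58.1 voom, other scalings and filters, the 6 libraries compared, the replicate number as a term and leaving out each library. Plain totals and pan-neuronal scaling were added after seeing the data.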

Additional observations from a re-analysis of the deposited data

How the results depend on the processing

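Of 513 alternative values for the 9 factors (19 settings, 3 comparisons), 459 kept direction and side of the threshold, 21 lost a call, 16 gained one and 23 changed sign, of which 1 is among the lost and 5 among the gained calls. Lmo4 passed in all 19 settings for K+ ICN against PA and against Na+ ICN. Cux2 passed in 18 and 12, Neurod2 in 18 against Na+ ICN and in 16 for Na+ ICN against PA, and Neurod6 in 10. The causes were not tested.

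The number of factors called for Na+ ICN against PA was 2 with upper-quartile factors and 2 with pan-neuronal scaling, and 0 to 2 when a library was left out (0 without Na+ ICN replicate 1, PA replicate 1 or PA replicate 3). For K+ ICN against PA it was 4 with the 6 libraries compared and 5 with pan-neuronal scaling. For K+ ICN against Na+ ICN it was 2 with plain library totals and 2 to 4 when a library was left out (2 without Na+ ICN replicate 2 or 3 or K+ ICN replicate 2). Over all genes, 1079 to 1611 were called for Na+ ICN against PA when a library was left out, lowest without PA replicate 3 and 1089 without Na+ ICN replicate 2, against 1648 with all libraries. Pan-neuronal scaling called 5794 genes for K+ ICN against PA (2403 as reported), 96.9% of them higher, and 4616 for K+ ICN against Na+ ICN (999 as reported), 97.6% of them higher. Upper-quartile factors moved the share of higher calls for Na+ ICN against PA to 65.4% (51.9% as reported), and plain totals moved that for K+ ICN against Na+ ICN to 64.8% (50.6%).

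Of the 23 sign changes, 17 were called in neither fit, 1 was the lost call of Neurod6 in K+ ICN against Na+ ICN, and 5 were called with the new sign, all on the pan-neuronal scale: Fezf2, Cux1, Neurod2 and Neurod6 in K+ ICN against PA and Bcl11b in K+ ICN against Na+ ICN. For K+ ICN against PA, Fezf2 was at 0.017 with upper-quartile factors, 0.00101 with limma voom, 0.0046 with plain totals and -0.0361 to 0.0661 when a library was left out. With pan-neuronal scaling, Fezf2, Bcl11b, Tbr1, Cux1, Neurod2 and Neurod6 were at 0.164, 0.0618, 0.0967, 0.127, 0.112 and 0.147. For K+ ICN against Na+ ICN on that scale, Bcl11b, Tbr1, Foxp2, Cux1 and Neurod6 were at 0.138, 0.0306, 0.12, 0.0633 and 0.0523. In the same comparison Bcl11b was at 0.00863 with plain totals and at -0.0562 to 0.0241 when a library was left out, and Foxp2 at -0.125 to 0.0802. Lmo4 in Na+ ICN against PA was at -0.00507 to 0.056.

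The replicate block (replicate number as a term) called 2612, 1825 and 1165 genes for K+ ICN against PA, Na+ ICN against PA and K+ ICN against Na+ ICN, and 3, 1 and 4 factors. The added factor was Bcl11b in K+ ICN against PA (adjusted p = 0.0252). Deviations of same-numbered libraries correlated at -0.0234 to 0.0483, with 0 of 9 pairs over 0.1. Those of differently numbered libraries correlated at -0.03657 to 0.03948. The fit without the block called fewer genes in each comparison (2403, 1648 and 999). Correlations this low over all genes cannot settle whether the numbers pair the cultures. Foxp2 had the fewest counts, with a counting error of 6.47% at its lowest count, and its level varied by 7.63% to 14.1% (coefficient of variation) within groups.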
